A study of Mus musculus with 24 samples.

Results

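The arrays of the samples labelled SCN and LGN were compared, 6 of the 24 one-colour miRNA microarrays of the series, 3 for each tissue. The labels do not spell the abbreviations out. They were read here as the suprachiasmatic nucleus, the clock nucleus of the hypothalamus, and the lateral geniculate nucleus, the relay of the visual pathway in the thalamus. All mice were of the strain C57BL/6J. Each tissue had 1 array from each of 3 lens groups. In the Control group no lens was worn, in the 0D group a lens with a power of 0 diopter, and in the Lens-induced group a lens of negative power that induces myopia. For the myopia model the study's methods describe male mice that carried the lens on the right eye for 3 weeks from the age of 3 weeks. Those methods describe the ocular tissues of the Control and Lens-induced groups, for which RNA of 3 mice was mixed. How many mice gave each SCN or LGN sample, and from which side of the brain, is not given in the sources used here. An SCN and an LGN array of the same lens group formed a pair, so that 3 pairs were compared, and the lens group served as the replicate. The spread between pairs therefore holds any effect of the lens on either region, and whether it is biological or technical was not tested.

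The signal of a miRNA was the sum over its probes above 3 probe errors, scaled so that the arrays matched at the 75th percentile of 79 miRNAs found on every one of the 24 arrays. Of the 1881 miRNAs on the array, 284 were detected on at least 1 of the 6 arrays and 203 on all 6. The 250 miRNAs detected on at least 3 of the 6 were tested with limma, in a fit with the lens group as a block. A log2 difference is always SCN minus LGN, as the mean of the 3 pairs with its standard error (SE), and an adjusted p is that of limma with Benjamini-Hochberg adjustment over the 250 miRNAs.

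miRNAs are short RNAs that guide Argonaute proteins to messenger RNAs and lower their translation or stability. The seed, bases 2 to 8 from the 5′ end, does most of the target recognition, so miRNAs with the same seed form a family. Brain regions differ in their miRNAs because neurons, oligodendrocytes and other cells each have their own set. miR-7 is known from neuroendocrine cells and the hypothalamus, miR-124, miR-9 and miR-137 from neurons, and miR-219 and miR-338 from myelinating oligodendrocytes. A large set of miRNAs that the brain expresses lies in the imprinted Dlk1-Dio3 region, where the maternal chromosome is transcribed.

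The sequences below are those of miRNAs on which the differences turn, with the seed in capitals, from the RefSeq annotation of the mouse assembly GRCm38.p6, in which 213 of the 250 tested miRNAs were found by name. The first 8 were called higher in the SCN in all scalings described below. miR-7a and miR-7b share a seed, and their first 23 bases differ by A10U, with positions counted from the 5′ end and miR-7a first. miR-376a and miR-376b, neighbours on chromosome 12, differ in the seed itself, by G4A, and also by A13C and G20U. miR-34a and miR-34b have the same seed and differed in opposite directions. miR-219a, miR-338 and miR-31 were higher in the LGN.
miR-7a-5p: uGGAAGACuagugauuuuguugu
miR-7b-5p: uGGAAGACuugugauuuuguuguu
miR-148a-3p: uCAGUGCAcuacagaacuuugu
miR-137-3p: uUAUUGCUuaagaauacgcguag
miR-495-3p: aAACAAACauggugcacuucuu
miR-376a-3p: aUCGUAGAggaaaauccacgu
miR-376b-3p: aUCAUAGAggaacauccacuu
miR-410-3p: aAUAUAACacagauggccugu
miR-34a-5p: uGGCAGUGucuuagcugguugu
miR-34b-5p: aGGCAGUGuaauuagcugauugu
miR-219a-5p: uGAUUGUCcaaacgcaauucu
miR-338-3p: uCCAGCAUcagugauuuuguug
miR-31-5p: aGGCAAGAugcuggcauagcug

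Between 225 and 249 miRNAs were detected per array, 246 to 249 in the SCN and 225 to 240 in the LGN. Across the 203 miRNAs detected on all 6 arrays, log2 signals of 2 arrays of the same tissue correlated with r from 0.984 to 0.993, and those of an SCN and an LGN array with r from 0.903 to 0.966. The highest of the latter was that of the Control SCN and Control LGN arrays. The Control pair stood apart in the size of its differences: their SD across these miRNAs was 0.619 in the Control pair, 0.997 in the 0D pair and 1.04 in the Lens-induced pair on the log2 scale. Each slide held 1 lens group, and the SCN samples were always at 1 position of the slide and the LGN samples at another, so that slide position and tissue cannot be told apart. In these bulk samples, fewer cells of a type and less RNA per cell cannot be told apart either.

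The scaling moved all values together. Under the main scaling the median log2 difference of the 250 miRNAs was 0.53, and under 6 other scalings it was from -0.03 to 0.15. Differences are therefore also given relative to the median, as the log2 difference minus 0.53, and a miRNA is called higher in all scalings only where limma called it in the same direction under the main and the 6 other scalings. In the main scaling 192 of the 250 miRNAs (76.8%) differed in the same direction in all 3 pairs, 163 higher in the SCN (65.2%) and 29 higher in the LGN (11.6%). The direction was kept in all 3 pairs and all 7 scalings by 77 of the former (30.8% of those tested) and 27 of the latter (10.8%). limma called 138 higher in the SCN (55.2%) and 26 higher in the LGN (10.4%), and all of these had the same sign in the 3 pairs. The share of calls that were higher in the SCN was 84.2% in the main scaling and 51.4% to 66.2% in the others. In all scalings 46 miRNAs were higher in the SCN (18.4%) and 23 higher in the LGN (9.20%). Of the 86 miRNAs not called in the main scaling, 15 were called higher in the LGN under all 6 other scalings and none higher in the SCN. The number of calls changed when a pair was left out. The 26 became 43 without the Control pair, 3 without the 0D pair and 8 without the Lens-induced pair, while the 138 became 131, 87 and 85. A fit without 1 pair has fewer arrays and less precision, and the part of this in the lost calls was not tested, here and for the single miRNAs below. Those called in all scalings were called in the main scaling without the Control pair in 46 of 46 and 22 of 23 cases, without the 0D pair in 41 of 46 and 2 of 23, and without the Lens-induced pair in 44 of 46 and 6 of 23. The 46 had log2 differences from 1.08 to 4.40, with a median of 1.51, and 36 of them were detected on all 6 arrays. The 23 had differences between 0.29 and 2.76 in size, with a median of -0.93, and 21 of them were detected on all 6 arrays. Relative to the median of all tested miRNAs, the medians were 0.983 for the 46 and -1.455 for the 23. Which side had the larger differences thus depended on the scaling.

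**Figure D1:**
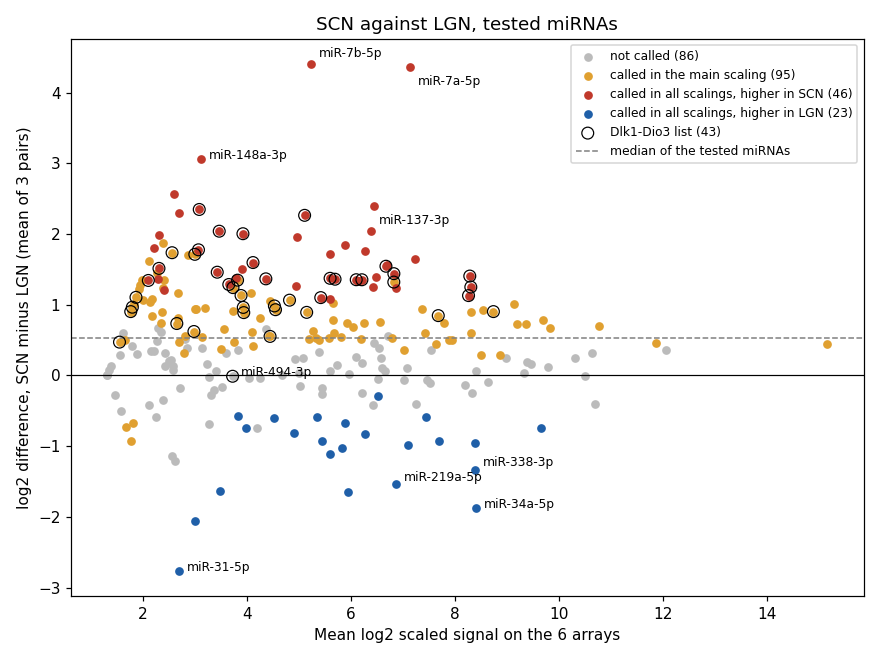
Log2 difference SCN minus LGN (mean of 3 pairs) against the mean log2 scaled signal on the 6 arrays for the 250 tested miRNAs. Red and blue points are the 46 and 23 miRNAs called higher in the SCN and in the LGN in all scalings, orange points are called in the main scaling but not in all, grey points are not called, rings mark the Dlk1-Dio3 list, the solid line is 0 and the dashed line the median of 0.53. miR-7a and miR-7b stand above all others, and miR-31-5p has the lowest value.

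Where 2 or more probes could be compared, the differences held across them. The other miRNAs could not be compared in this way. Among these, miR-7a-5p, miR-7b-5p, miR-495-3p and miR-376b-3p had 1 probe above 3 errors on all 6 arrays. On that probe their log2 differences were 4.27, 3.93, 2.13 and 1.64, each smaller than that of the summed signal given below. Among the miRNAs called in all scalings, 20 of those higher in the SCN and 13 of those higher in the LGN had 2 or more probes above 3 errors on all 6 arrays, and in each of these all probes pointed the same way, with at most 0.18 and 0.21 between the probes of a miRNA on the log2 scale. A difference of at least 2-fold in every pair was reached by 44 of the 46 (52 of the 250 tested, 20.8%) and by 4 of the 23 (4 of the 250 tested, 1.60%). These 4 were miR-34a-5p, miR-219a-5p, miR-219a-2-3p and miR-31-5p, the last with all SCN arrays at the floor. In the other scalings 10 to 19 of the 250 reached it in the SCN and 12 to 22 in the LGN. All 3 pairs differed by more than 2 propagated probe errors in 36 of the 46 (89 of the 250, 35.6%) and in 12 of the 23 (12 of the 250, 4.80%). In 168 of the 250 (67.2%) the SCN arrays did not overlap with the LGN arrays.

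miR-7 was the family with the largest excess in the SCN. miR-7a-5p, whose copies lie on chromosomes 7 and 13, had scaled signals of 571, 608 and 756 in the Control, 0D and Lens-induced SCN arrays and of 106, 15.2 and 18.8 in the LGN arrays. miR-7b-5p, encoded at chr17:56243017-56243040 (plus strand), had 169, 164 and 185 in the SCN and 31.0, 3.96 and 4.45 in the LGN. All SCN arrays were above all LGN arrays, and among the latter the Control array was the highest for both. The log2 difference was 4.36 (SE 0.72, adjusted p = 0.012) for miR-7a-5p and 4.40 (SE 0.73, adjusted p = 0.012) for miR-7b-5p. The 3 pairs gave 2.43, 5.33 and 5.33 for miR-7a-5p, so that the excess was 5.39-fold in the Control pair and 40.1-fold and 40.2-fold in the others. The order of the pairs was the same for miR-7b-5p, at 2.45, 5.37 and 5.38. limma no longer called either without the 0D pair or without the Lens-induced pair: miR-7a-5p was then at 3.88 (adjusted p = 0.078) and 3.88 (adjusted p = 0.052), and miR-7b-5p at 3.92 (adjusted p = 0.078) and 3.91 (adjusted p = 0.052). As the mature forms differ by the substitution and length given above, whether probes told them apart was not tested.

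The other strands of the miR-7a hairpins were also called higher in the SCN. miR-7a-2-3p had 6.43, 8.08 and 8.56 in the SCN and was not detected on an LGN array, which puts the SCN at least 1.21-fold higher. miR-7a-1-3p had 6.13, 6.14 and 6.65 in the SCN, and 3.04 and 3.86 on the Control and 0D LGN arrays. Both were called in the main scaling, but not in all scalings, and miR-7a-1-3p was not called without the Control pair, at 1.04 (adjusted p = 0.05), or without the Lens-induced pair, at 0.84 (adjusted p = 0.052). miR-375-3p, a miRNA of endocrine cells, was detected only on the Control and Lens-induced SCN arrays, at 5.91 and 6.999, and was not tested. Of the 7 miRNAs in the list of hypothalamic and neuroendocrine miRNAs, 4 were tested and all 4 called higher in the SCN (against 55.2% of all tested miRNAs), 2 of them in all scalings (against 18.4%), with a median log2 difference of 2.99 against 0.53 over all tested miRNAs. All 4 are products of miR-7 hairpins, so they do not count as 4 separate members. miR-7a-2-3p was tested only through its SCN arrays, which fixed the direction of its call.

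miR-137-3p, a regulator of neuronal maturation and synapses encoded at chr3:118433901-118433923 (plus strand), had 169.8, 173 and 165 in the SCN and 49.5, 34.1 and 41.5 in the LGN. The groups did not overlap, and the log2 difference was 2.04 (SE 0.14, adjusted p = 0.0035). It was not detected on any ocular array, the retina included. miR-153-3p, which is known from the synapse, had 154, 142 and 139.6 in the SCN and 65.0, 48.8 and 53.9 in the LGN, a log2 difference of 1.38 (SE 0.10, adjusted p = 0.0035). miR-384-5p, a brain miRNA with the seed of miR-30, had a log2 difference of 1.38 (SE 0.12, adjusted p = 0.0037), while miR-30a-5p did not pass the test in the main scaling at -0.26 (SE 0.13, adjusted p = 0.17) and was called higher in the LGN under all 6 other scalings (log2 difference from -0.84 to -0.64, adjusted p from 0.0082 to 0.022). miR-488-3p and miR-383-5p, both found in no ocular array, were called in the main scaling but not in all, with 1.36 and 1.16. miR-488-3p was not called without the 0D pair, at 1.22 (adjusted p = 0.1), or without the Lens-induced pair, at 1.16 (adjusted p = 0.073).

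miR-148a-3p, encoded at chr6:51269829-51269850 (minus strand), had 27.0, 22.9 and 25.4 in the SCN, while only the Control LGN array detected it, at 4.33. Its relative miR-148b-3p, with the same seed, was not called and lay at -0.21 relative to the median. miR-3099-3p was at 223, 159 and 226 in the SCN and at 57.9, 26.0 and 36.9 in the LGN, with a log2 difference of 2.39 (SE 0.18, adjusted p = 0.0036). miR-873a-5p had 59.7, 58.9 and 66.5 and 16.4, 15.04 and 16.4, a log2 difference of 1.95 (SE 0.083, adjusted p = 0.0035), and its 3 pairs were close, at 1.86, 1.97 and 2.02. miR-296-5p differed by 1.84 (SE 0.20, adjusted p = 0.0046), miR-344b-3p by 1.76 (SE 0.18, adjusted p = 0.0045), miR-326-3p by 1.72 (SE 0.10, adjusted p = 0.0035), miR-149-5p by 1.65 (SE 0.082, adjusted p = 0.0035) and miR-598-3p by 1.56 (SE 0.17, adjusted p = 0.0046). Each was called in all scalings and had SCN arrays above all LGN arrays. miR-335-5p had 12.3, 16.6 and 14.6 in the SCN and was detected only on the Control LGN array, at 4.05.

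**Figure D2:**
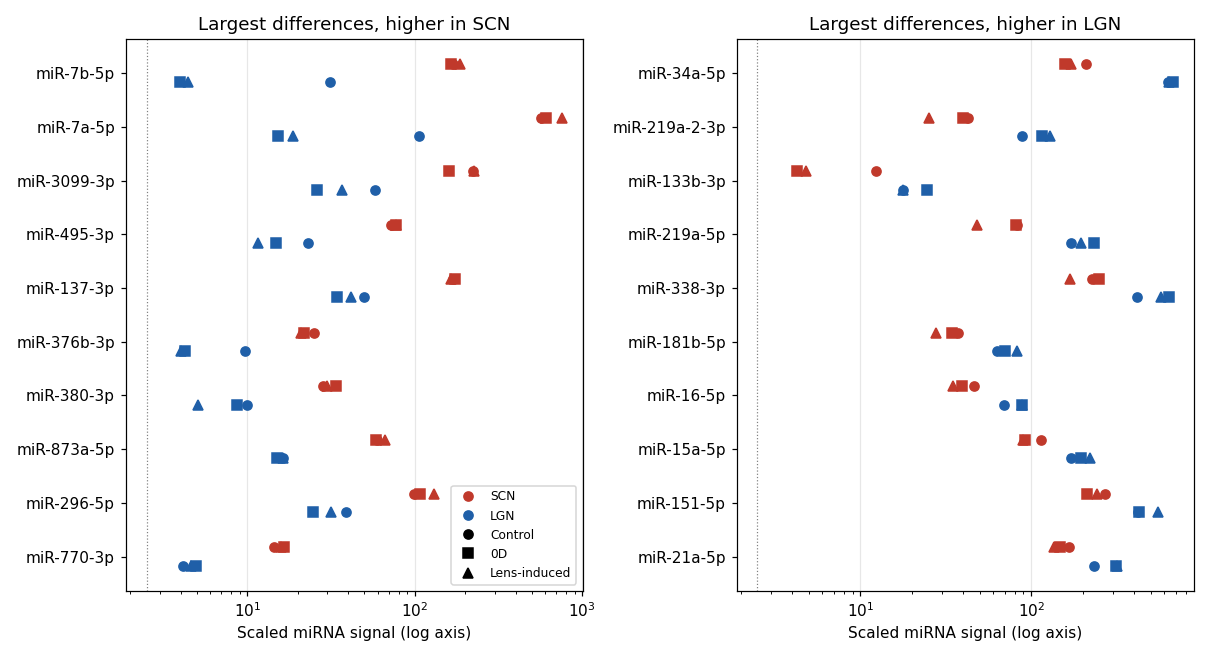
Scaled miRNA signal (log axis) on each of the 6 arrays for the 10 miRNAs with the largest called difference in each direction among those detected on all 6 arrays and with the same sign in all pairs. Red points are SCN arrays and blue points LGN arrays, circles, squares and triangles are the Control, 0D and Lens-induced groups, and the dotted line is the common floor of 2.50. Red and blue points do not overlap in any of the rows, and the Control LGN array is the highest LGN array for 9 of the 10 miRNAs higher in the SCN, all but miR-770-3p.

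The miRNAs of the Dlk1-Dio3 region were higher in the SCN as a group. Of the 103 miRNAs of the list on the array, 44 were detected on at least 1 of the 6 arrays and 43 were tested. limma called 42 higher in the SCN (against 55.2% of all tested miRNAs) and none higher in the LGN in the main scaling, and 21 were called higher in the SCN in all scalings (against 18.4%). Their median log2 difference was 1.29, or 0.76 relative to the median of all tested miRNAs. The summed signal of the list was 3929, 3828 and 4133 in the SCN and 1806, 1673 and 1681 in the LGN for the Control, 0D and Lens-induced arrays. No SCN array overlapped with an LGN array in this sum.

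By position, 40 of the tested miRNAs lay on the plus strand of chromosome 12 in 2 groups with gaps under 50 kb. The first, chr12:109563744-109618326, held 12 tested miRNAs and all 12 were called higher in the SCN (against 55.2% of all tested miRNAs), 6 in all scalings (against 18.4%). It includes miR-127-3p, which lies antisense to the imprinted gene Rtl1, with 482, 419 and 465 in the SCN and 200.2, 219 and 205 in the LGN and a log2 difference of 1.13 (SE 0.11, adjusted p = 0.0041). It also includes miR-433-3p, at 109.6, 122 and 125 and 49.5, 44.5 and 45.6, and miR-770-3p, with a log2 difference of 1.78 (SE 0.077, adjusted p = 0.0035). The second group, chr12:109709065-109743784, held 28 tested miRNAs, of which 27 were called higher in the SCN (against 55.2%) and 15 in all scalings (against 18.4%). Among the 27, miR-496a-3p was not detected on any LGN array, which fixed the direction of its call.

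Within the second group the size of the difference varied along the cluster. miR-495-3p, encoded at chr12:109718795-109718816 (plus strand), had 72.4, 77.5 and 77.8 in the SCN and 23.0, 14.8 and 11.6 in the LGN, a log2 difference of 2.26 (SE 0.25, adjusted p = 0.0048). Near it, miR-376b-3p had 2.04 (SE 0.26, adjusted p = 0.0064) and miR-380-3p 2.003 (SE 0.24, adjusted p = 0.0055), and miR-543-3p, which was not detected on the Lens-induced LGN array, had 2.35 (SE 0.34, adjusted p = 0.0091). Without the 0D pair miR-376b-3p, at 1.88 (adjusted p = 0.054), and miR-380-3p, at 2.02 (adjusted p = 0.052), were not called. miR-376a-3p, at chr12:109723824-109723844 (plus strand), had 177, 180.3 and 167 in the SCN and 65.0, 59.4 and 55.8 in the LGN and a log2 difference of 1.54 (SE 0.084, adjusted p = 0.0035). At the end of the cluster, miR-410-3p had 490.1, 485 and 553 and 209, 175 and 194, with 1.40 (SE 0.10, adjusted p = 0.0035). miR-494-3p, from the same cluster, was the exception, with 23.3, 9.55 and 10.3 in the SCN and 16.2, 14.0 and 10.4 in the LGN. Its arrays overlapped and its log2 difference of -0.01 (SE 0.25, adjusted p = 0.97) did not pass the test. It was also the 1 tested miRNA of the list that all 18 ocular arrays detected.

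**Figure D3:**
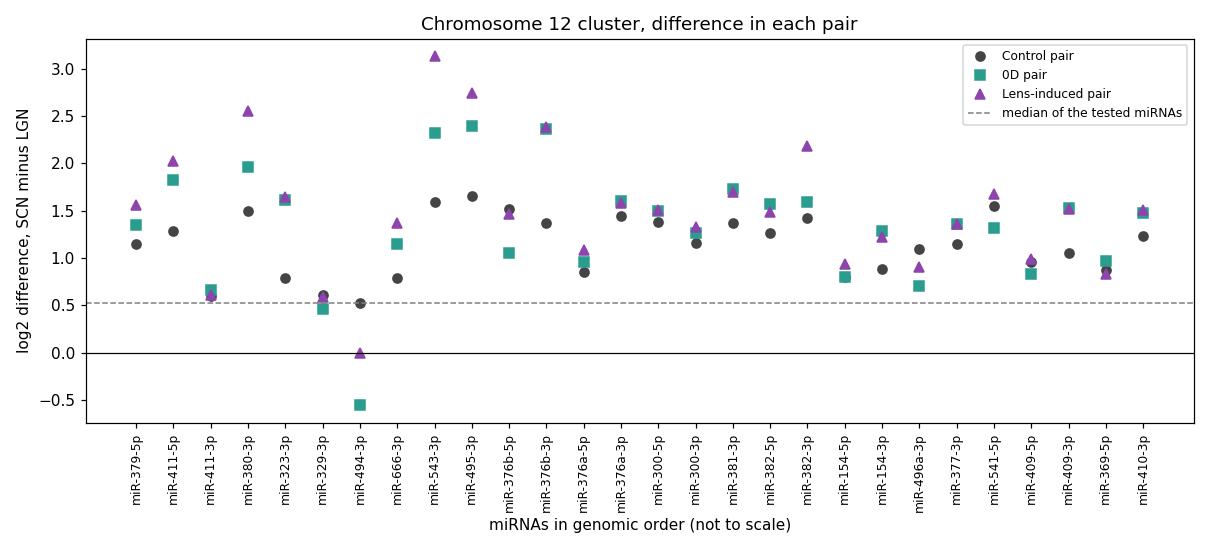
Log2 difference SCN minus LGN in each of the 3 pairs (circles Control, squares 0D, triangles Lens-induced) for the 28 tested miRNAs of the larger chromosome 12 cluster, in genomic order and not to scale. The solid line is 0 and the dashed line the median of 0.53 over all tested miRNAs. All points are above 0 except the 0D and Lens-induced ones of miR-494-3p, and the widest gaps between pairs are at miR-543-3p, miR-495-3p and miR-494-3p.

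miR-34a-5p was the miRNA with the largest excess in the LGN among those detected on all 6 arrays. Encoded at chr4:150068473-150068494 (plus strand) and known as a target of p53 and a regulator of neurons, it had 209, 157 and 169.9 in the SCN and 631, 673 and 642 in the LGN. The LGN arrays were all above the SCN arrays and close to each other, and the log2 difference was -1.87 (SE 0.13, adjusted p = 0.0035), a 3.66-fold excess in the LGN. The pairs gave -1.59, -2.10 and -1.92. On the retina arrays it had 117, 98.6 and 100.0.

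The miRNAs of oligodendrocytes were higher in the LGN. Of the 8 in the list, 3 were detected and tested, and all 3 were called higher in the LGN in all scalings (against 10.4% in the main scaling and 9.20% in all scalings of all tested miRNAs). miR-219a-5p, which promotes oligodendrocyte differentiation, had 82.0, 81.2 and 47.9 in the SCN and 171, 234 and 197 in the LGN, a log2 difference of -1.54 (SE 0.22, adjusted p = 0.0091). miR-219a-2-3p had 42.4, 40.1 and 25.1 and 88.6, 115 and 128, a log2 difference of -1.65 (SE 0.29, adjusted p = 0.014), and was not detected on any ocular array. miR-338-3p, encoded at chr11:120014781-120014802 (minus strand), had 227, 251 and 168 and 418, 643 and 573, a log2 difference of -1.34 (SE 0.21, adjusted p = 0.01). In all 3, the Control LGN array was the lowest of the LGN arrays, the Lens-induced SCN array was the lowest of the SCN arrays, and no arrays of the tissues overlapped. None of the 3 was called without the 0D pair, where the log2 differences were -1.55 (adjusted p = 0.068), -1.71 (adjusted p = 0.082) and -1.33 (adjusted p = 0.074) in the order given.

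miR-31-5p, encoded at chr4:88910614-88910635 (minus strand), was detected on the LGN arrays only, at 18.5, 23.8 and 11.02. Against the detection limits of the SCN arrays it was at least 2.005-fold higher in the LGN. It was tested only through its LGN arrays, with all SCN arrays at the floor. The direction of its call was therefore fixed in advance. It was detected on 14 of the 18 ocular arrays but on none of the retina. The muscle miRNAs miR-133a-3p and miR-133b-3p, which are low in brain, were higher in the LGN as well. miR-133b-3p had 12.4, 4.26 and 4.84 in the SCN and 17.7, 24.5 and 17.8 in the LGN. miR-133a-3p had 15.6, 17.3 and 16.5 in the LGN and 9.84 on the Control SCN array, and was not detected on the other SCN arrays. miR-1a-3p, the usual partner of miR-133a, had 4.23, 6.16 and 4.09 in the LGN only, and was called in the main scaling but not in all, and its sign turned with the normexp background correction. The summed signal of the 4 muscle miRNAs was 22.2, 4.26 and 4.84 in the SCN and 37.6, 47.9 and 38.4 in the LGN, so that the Control SCN array stood above the other SCN arrays. Neither miR-133a-3p nor miR-133b-3p was called without the 0D pair, at -1.70 (adjusted p = 0.16) and -1.20 (adjusted p = 0.15), or without the Lens-induced pair, at -1.73 (adjusted p = 0.12) and -1.52 (adjusted p = 0.14). The part of muscle tissue in the difference was not tested.

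Other miRNAs higher in the LGN had smaller differences. In the miR-15 and miR-16 family, 3 of the 6 tested members were called higher in the LGN in the main scaling (against 10.4% of all tested miRNAs). All 3 were called in all scalings (against 9.20%), and none was called higher in the SCN. miR-195a-5p and miR-497a-5p were called higher in the LGN under all 6 other scalings but not in the main one. miR-322-5p was called under none of the scalings. miR-16-5p had 46.3, 39.5 and 35.0 in the SCN and 69.6, 88.0 and 88.7 in the LGN, a log2 difference of -1.03 (SE 0.19, adjusted p = 0.014). miR-15a-5p differed by -0.99 (SE 0.18, adjusted p = 0.014) and miR-15b-5p by -0.83 (SE 0.22, adjusted p = 0.041). miR-151-5p had 272, 212 and 241 and 424, 428 and 554, with -0.95 (SE 0.14, adjusted p = 0.01), and miR-21a-5p, known from glia and inflammation, had 167, 146 and 136 and 231, 311 and 319, with -0.93 (SE 0.19, adjusted p = 0.02). miR-128-3p, an abundant neuronal miRNA, had 827, 559 and 516 in the SCN and 1013, 1073 and 1026 in the LGN, with -0.74 (SE 0.18, adjusted p = 0.035). The adjusted p of several of these lay near 0.05, as for miR-100-5p at 0.049 and miR-27b-3p at 0.048, although they passed in all scalings. Without the 0D pair none of miR-16-5p, miR-15a-5p, miR-151-5p, miR-21a-5p and miR-128-3p was called, with adjusted p from 0.075 to 0.16, and without the Lens-induced pair it was 0.054 to 0.14. In 19 of the 23 miRNAs higher in the LGN and in 31 of the 46 higher in the SCN, the difference was smaller in the Control pair than in both other pairs. The share over all tested miRNAs was not taken. Under the main scaling the median difference was 0.69 in the Control pair, 0.38 in the 0D pair and 0.51 in the Lens-induced pair. The part of this shift in the counts was not tested.

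**Figure D4:**
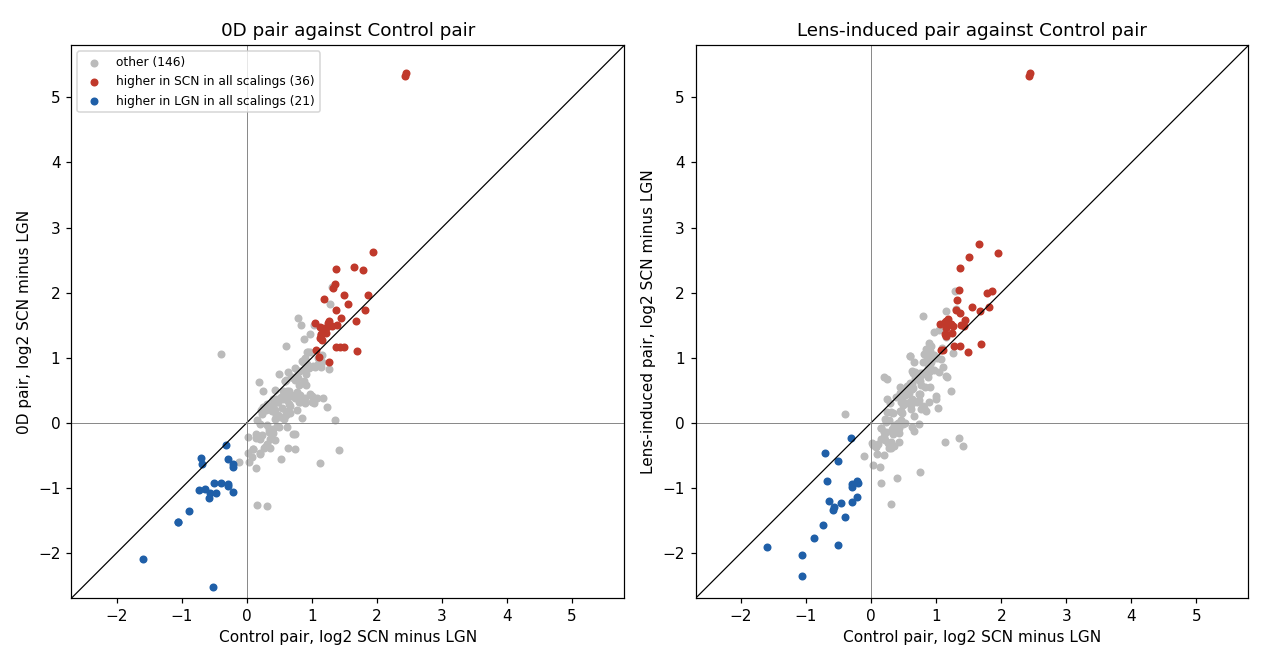
Log2 difference SCN minus LGN in the 0D pair (left) and the Lens-induced pair (right) against that in the Control pair, for the 203 miRNAs detected on all 6 arrays. Red and blue points are the 36 and 21 of them called higher in the SCN and in the LGN in all scalings, grey points the other 146, and the diagonal marks equal differences. Differences spread more widely in the 0D and Lens-induced pairs (SD 0.997 and 1.04) than in the Control pair (SD 0.619), and miR-7a-5p and miR-7b-5p lie at the top.

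Members of a seed family did not always differ in the same direction. Among 22 seeds shared by 2 or more tested miRNAs with a RefSeq sequence, 3 had calls in both directions, and 2 of these had them in all scalings. In the miR-34 family, miR-34b-5p, at chr9:51103610-51103632 (minus strand), had 145, 114 and 347 in the SCN and 56.4, 51.2 and 153 in the LGN, a log2 difference of 1.24 (SE 0.089, adjusted p = 0.0035), opposite to that of miR-34a-5p. miR-34c-5p had 94.2, 73.8 and 201 and 29.2, 34.2 and 86.4, with 1.34 (SE 0.15, adjusted p = 0.0052). Without the lens group as a block neither passed the test (adjusted p = 0.12 and 0.08). These miRNAs are known from cells with motile cilia, such as those of the ependyma, and in both tissues the Lens-induced array was more than 2-fold above the other arrays of the tissue. miR-449a-5p, another miRNA of ciliated cells, and miR-34c-3p were detected only on the Lens-induced SCN array, at 6.18 and 8.66. Within each pair the SCN array was above the LGN array, but the Lens-induced LGN array was above the Control and 0D SCN arrays for miR-34b-5p and above the 0D SCN array for miR-34c-5p. The summed signal of the 9 miRNAs of the ciliated-cell list was 239, 188 and 562 in the SCN and 85.6, 85.4 and 239 in the LGN, and the part of such cells in the difference was not tested.

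In the miR-181 family, miR-181a-5p and miR-181b-5p were higher in the LGN and miR-181c-5p and miR-181d-5p higher in the SCN. miR-181b-5p had 37.4, 34.3 and 27.6 in the SCN and 62.6, 70.2 and 82.1 in the LGN, a log2 difference of -1.12 (SE 0.20, adjusted p = 0.014), and miR-181a-5p differed by -0.92 (SE 0.24, adjusted p = 0.037). Without the 0D pair miR-181b-5p was not called, at -1.16 (adjusted p = 0.082). miR-181c-5p had 65.6, 69.2 and 76.9 and 30.5, 34.3 and 35.5, with 1.08 (SE 0.079, adjusted p = 0.0035). miR-181d-5p had 12.2, 13.2 and 12.9 and 5.69, 7.09 and 7.14, with 0.95 (SE 0.094, adjusted p = 0.0042), and was not called in all scalings. On chromosome 1, miR-181a and miR-181b lie in 1 cluster, chr1:137966468-137966673. All 3 of its tested miRNAs were called higher in the LGN in the main scaling (against 10.4% of all tested miRNAs), 2 in all scalings (against 9.20%). miR-181a-5p and miR-181b-5p are also encoded on chromosome 2, so their signal cannot be assigned to this cluster. The third, miR-181a-1-3p, was not detected on any SCN array, which fixed the direction of its call. Of 24 hairpins with both arms tested and matched in RefSeq, 23 had both arms on the same side of the median and none had calls in opposite directions. Hairpins with an unmatched arm are not in this count, among them that of miR-129-1-3p, which was higher in the LGN at -0.67 (SE 0.12, adjusted p = 0.015), while miR-129-5p, the product of the other arm and of a copy on another chromosome, was called higher in the SCN in the main scaling at 0.60 (SE 0.10, adjusted p = 0.012) but under none of the 6 other scalings.

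**Figure D5:**
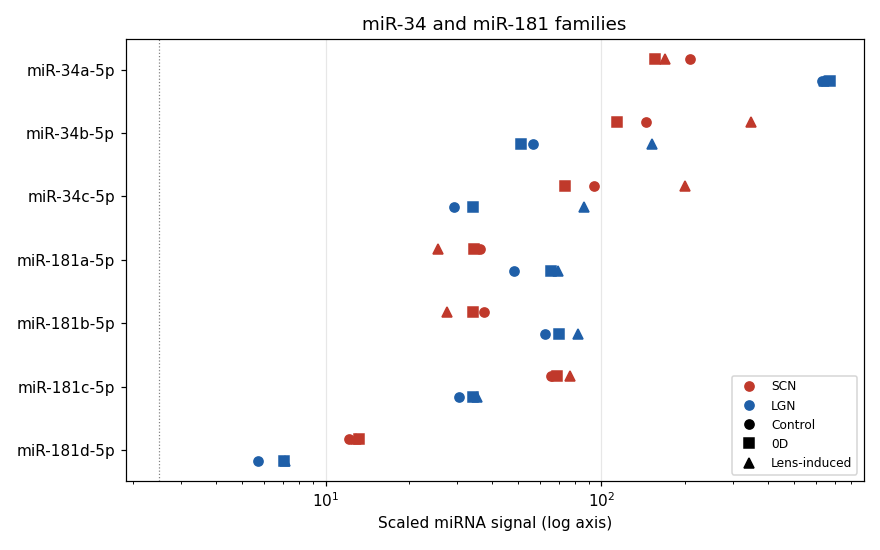
Scaled miRNA signal (log axis) on each of the 6 arrays for 3 miRNAs of the miR-34 family and 4 of the miR-181 family. Red points are SCN arrays and blue points LGN arrays, circles, squares and triangles are the Control, 0D and Lens-induced groups, and the dotted line is the common floor of 2.50. miR-34a-5p, miR-181a-5p and miR-181b-5p have blue points to the right of the red ones, and the order is the reverse within each pair for the other 4.

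miRNAs linked to the circadian clock did not share a direction. Of the 16 in the list, 10 were tested. In the main scaling 4 were called higher in the SCN (against 55.2% of all tested miRNAs; none in all scalings), 2 higher in the LGN (against 10.4%; both in all scalings) and 4 were not called. Their median log2 difference was -0.07 against 0.53 over all tested miRNAs. miR-132-3p, which light induces in the SCN, had 279.8, 282 and 320.0 in the SCN and 245, 183 and 197 in the LGN, with 0.50 (SE 0.14, adjusted p = 0.044) in the main scaling, and its sign turned under 2 of the 6 other scalings. miR-212-3p, from the same hairpin cluster, had 50.5, 44.4 and 50.2 and 32.3, 33.3 and 34.6, with 0.53 (SE 0.091, adjusted p = 0.013), and turned under 1. They lay at -0.02 and 0.01 relative to the median. miR-29a-3p and miR-185-5p were also called in the main scaling, with 0.69 and 0.74. Without the 0D pair miR-132-3p, miR-212-3p and miR-29a-3p were not called, at 0.45 (adjusted p = 0.19), 0.59 (adjusted p = 0.067) and 0.68 (adjusted p = 0.052), and neither were they without the Lens-induced pair. miR-219a-5p, the other miRNA known from the clock of the SCN, was among those higher in the LGN. miR-24-3p, miR-30a-5p, miR-192-5p and miR-494-3p did not pass the test in the main scaling. Under the 6 other scalings miR-30a-5p and miR-192-5p were called higher in the LGN in all 6 (the latter with log2 difference from -0.83 to -0.54, adjusted p from 0.015 to 0.045), miR-24-3p in 4 and miR-494-3p in none.

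The neuronal miRNAs did not share a direction either. Of the 13 tested of 15, 6 were called higher in the SCN (against 55.2% of all tested miRNAs), 2 in all scalings (against 18.4%), 2 higher in the LGN (against 10.4%), both in all scalings (against 9.20%), and 5 were not called in the main scaling, with a median log2 difference of 0.46 against 0.53. miR-124-3p, the main miRNA of neurons, had 1499.9, 1396 and 1427 in the SCN and 1627, 2111 and 2032 in the LGN, a log2 difference of -0.41 (SE 0.13, adjusted p = 0.064). It did not pass the test in the main scaling and was called higher in the LGN under all 6 other scalings (log2 difference from -0.99 to -0.57, adjusted p from 0.0056 to 0.016). miR-9-3p had 1327, 1417 and 1411 and 1049, 1199 and 1279, with 0.24 (SE 0.087, adjusted p = 0.079). The SCN arrays were all below the LGN arrays for miR-124-3p and all above them for miR-9-3p, in the main scaling, and the log2 difference of miR-9-3p was below 0 under 5 of the 6 other scalings. Without the Control pair miR-124-3p passed the test, with a log2 difference of -0.55 (adjusted p = 0.015). The adjusted p of miR-124-3p was 0.03 without the block. Beside miR-137-3p and miR-153-3p on the side of the SCN, miR-128-3p and miR-129-1-3p stood on that of the LGN, the latter with -0.67 (SE 0.12, adjusted p = 0.015). miR-129-1-3p was not called without the 0D pair, at -0.54 (adjusted p = 0.072), or without the Lens-induced pair, at -0.71 (adjusted p = 0.077). In the list of synaptic and activity-linked miRNAs, 8 of 11 tested were called higher in the SCN (against 55.2%), 2 in all scalings (against 18.4%), 1, miR-34a-5p, higher in the LGN and 2 were not called, with a median log2 difference of 0.68.

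Detection in 1 tissue only was seen for 12 miRNAs in the SCN and 5 in the LGN, when all 3 arrays of the tissue detected the miRNA and none of the other did. A lower bound of the ratio above 1 could be given for 5 and 1 of these. In the SCN these were miR-6988-5p, with 14.1, 12.9 and 17.6 (at least 2.31-fold higher), miR-676-3p, with 10.69, 8.89 and 10.1 (at least 1.55-fold), miR-135a-2-3p, with 12.3, 5.86 and 9.07 (at least 1.37-fold), miR-7a-2-3p and miR-760-3p (at least 1.01-fold). For the bound, the undetected arrays were given 3 errors for every probe of the miRNA, summed, or the array's lowest detected signal if that exceeded the sum, and the error on the detected arrays was not included. In the LGN the 1 was miR-31-5p. miRNAs detected in 1 tissue only entered the test through that tissue, so the direction of a call was fixed for them.

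Most of the differing miRNAs were not particular to the brain samples. All 3 retina arrays detected 32 of the 46 miRNAs higher in the SCN in all scalings and 21 of the 23 higher in the LGN, against 193 of all 250 tested. No retina array detected 9 of the 46, 2 of the 23 and 40 of the 250, and no ocular array at all 7 of the 46, 1 of the 23 and 27 of the 250. The levels in the retina stood on either side of those in the brain: for miR-7a-5p it had 58.2, 67.1 and 49.7, for miR-181b-5p 328, 302 and 273, for miR-128-3p 85.5, 83.7 and 69.1 and for miR-410-3p 48.6, 46.9 and 42.6. miR-181b-5p was thus higher on all retina arrays than on any SCN or LGN array, and miR-128-3p and miR-410-3p were lower. No test was made between retina and brain.

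Markers of other cell types were compared between the tissues. No list of thalamic miRNAs was set, so the label LGN was not checked by markers of its own. The hypothalamic and neuroendocrine list is not particular to the SCN and was chosen with earlier results of these data known. It therefore cannot check the label SCN, and the clock-linked list did not share a direction. The miR-200 family of epithelia, with 10 miRNAs, and the 11 miRNAs of the Hox gene clusters, which mark the hindbrain and spinal cord, were not detected on any of the 6 arrays. Of the 6 miRNAs of the sensory cluster of the retina, miR-183-5p was detected on the Control SCN and Control LGN arrays, at 8.21 and 3.97, and no other was detected. The choroid plexus miRNA miR-204-5p had 155, 116 and 116 in the SCN and 92.7, 129.9 and 196 in the LGN, and the endothelial miR-126a-3p had 198, 171 and 164 and 159.8, 215 and 202. Neither passed the test in the main scaling, where their arrays overlapped, and miR-126a-3p was called higher in the LGN under 4 of the 6 other scalings (log2 difference from -0.69 to -0.48, adjusted p from 0.018 to 0.1) and miR-204-5p under none. Of the 4 tested blood cell miRNAs 1 was called in each direction and 2 were not called, and miR-451a had 75.6, 56.3 and 57.6 in the SCN and 59.7, 60.4 and 65.3 in the LGN. It was not called in the main scaling and was called higher in the LGN under 4 of the 6 others. Of the 4 tested miRNAs of smooth muscle, pericytes and meninges, 1 was called higher in the SCN and 3 were not called. The Control SCN array was the highest for miR-199a-3p, at 10.5, and for miR-143-3p, at 9.16, and it was so for the blood cell miRNA miR-223-3p, at 12.5. The summed signal of that mural list was 118, 72.6 and 86.6 in the SCN and 57.1, 67.1 and 62.5 in the LGN, and its part in the smaller differences of the Control pair was not tested. The 8 tested miRNAs of the Sfmbt2 cluster, which multiplied in rodents, had 5 calls higher in the SCN in the main scaling (against 55.2% of all tested miRNAs) and 1, miR-669n, in all scalings (against 18.4%).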

How the data were processed

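Total RNA of 6 samples, 3 of SCN and 3 of LGN, was measured on one-colour (Cy3) Agilent mouse miRNA arrays with 30 spots and 1 to 4 probes for each of 1881 miRNAs. Per the labels, 100 ng of RNA extracted with the miRNeasy Micro kit was labelled, and the authors read the scans with Agilent Feature Extraction 10.7.1.1, whose deposited files hold the total probe signal and its error as intensity values without normalization between arrays. The deposited series table holds intensity values that differed from the probe sums by at most 0.033, and 18 of its 24 value columns, which belong to the other tissues, were left out. No spot was saturated.

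Probe signals above 3 probe errors were summed per miRNA (control spots left out) and divided by the 75th percentile of the 79 miRNAs detected on all 24 arrays. Undetected values, and detected values below it, were set to a common floor of 2.50, and log2 was taken. limma 3.58.1 (R 4.3.3) was fitted to the miRNAs detected on at least 3 of the 6 arrays, with the lens group as a block, since the arrays of a lens group shared a slide, and Benjamini-Hochberg adjustment at 0.05. Values were handled with Python 3.11.15, numpy 2.4.6 and pandas 2.3.3. Arrays hold no counts, so their number limits the precision. On simulated data for this comparison, all 80 of 80 miRNAs changed 4-fold among 250 were called, and 2 unchanged ones.

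The members and the 18 marker lists were chosen with earlier results of these data known. The miRNAs named were the 10 largest differences in each direction, up to 8 seen in 1 tissue only, the detected members of 4 lists (neuroendocrine, clock-linked, oligodendrocyte, neuronal) and up to 4 of each other list. miR-100-5p, miR-143-3p, miR-148a-3p, miR-148b-3p, miR-149-5p, miR-15b-5p, miR-181a-1-3p, miR-181a-5p, miR-181c-5p, miR-181d-5p, miR-195a-5p, miR-322-5p, miR-326-3p, miR-335-5p, miR-344b-3p, miR-376a-3p, miR-384-5p, miR-433-3p, miR-496a-3p, miR-497a-5p, miR-543-3p, miR-598-3p and miR-669n were chosen after their values were seen. Alternatives to the scaling, the background, the filter, the floor, the block and the samples were tried.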

Additional observations from a re-analysis of the deposited data

Results flagged for a closer look

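In the main scaling, several miRNAs had the opposite sign in the Control pair to that in the 0D and Lens-induced pairs. Among them were miR-210-3p, at 0.31, -1.28 and -1.25 in the 3 pairs, and miR-223-3p, at 1.42, -0.42 and -0.36. Of the miRNAs with this pattern, 3 were flagged. The log2 differences SCN minus LGN in the Control, 0D and Lens-induced pairs were 0.35, -0.39 and -0.36 for miR-24-3p, 0.74, -0.17 and -0.75 for miR-204-5p, and 0.31, -0.33 and -0.30 for miR-126a-3p. The 0D pair of miR-204-5p and the Lens-induced pair of miR-126a-3p were within 2 probe errors of 0. The main scaling shifted whole pairs, with medians over the 250 miRNAs of 0.69, 0.38 and 0.51. Relative to the median of each pair, miR-24-3p was at -0.34, -0.77 and -0.87 and miR-126a-3p at -0.38, -0.70 and -0.81, with no change of sign, and miR-204-5p was at 0.05, -0.54 and -1.26. With 1 pair per lens group the difference between pairs was not tested.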

How the results depend on the processing

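The counts moved with the scaling, the filter and the pairs used. Where 138 miRNAs were called higher in the SCN and 26 higher in the LGN, the counts were 88 and 45 when the 75th percentile was taken over miRNAs found on all 6 arrays, 71 and 51 with no scaling, 64 and 56 with quantile normalization, and, in scalings chosen after seeing the data, 66 and 53 with the percentile over those detected on each array, 72 and 68 with the median over those detected on all 6, and 82 and 59 when centred on the median deviation. In the same order of scalings, the same sign in all 3 pairs was seen in 113, 100, 88, 90, 97 and 103 miRNAs higher in the SCN, against 163, and in 75, 78, 86, 82, 92 and 91 higher in the LGN, against 29. At least 2-fold in all pairs was reached by 19, 12, 10, 13, 13 and 14 in the SCN, against 52, and by 12, 18, 18, 22, 18 and 16 in the LGN, against 4, and 3-fold by 12 and 2. With the normexp background 10 and 1 reached 2-fold, and the same sign was seen in 17 higher in the LGN. With undetected values at 0.1, 17 were called higher in the LGN. With all miRNAs on the array in the fit, limma called 0 in either direction, with 144 at an unadjusted p under 0.05, against 176 in the main fit of 250. Without 1 pair the calls were 85 to 131 in the SCN and 3 to 43 in the LGN. Without the replicate block they were 127 and 28, also from the deposited table, where no pairing could be used. The deviations of paired arrays correlated with r of -0.045, 0.38 and 0.30 in the Control, 0D and Lens-induced pairs. Detection in 1 tissue only fell from 12 to 7 miRNAs in the SCN at 2 errors, and from 5 to 3 in the LGN at 2 and at 5 errors.

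Of the 73 named and tested miRNAs, 13 changed sign under some setting with a call in the main fit or under that setting. Only such changes are listed here. Sign changes without a call are left out, as for miR-9-3p and miR-218-5p, below 0 under 5 of the 6 other scalings. The same holds for miR-140-5p, miR-466h-3p and miR-199b-5p, below 0 under all 6. miR-9-5p, miR-138-5p and miR-451a were also below 0 under all 6, with a call in only some. With quantile normalization the log2 difference was -0.41 for miR-9-5p, -0.53 for miR-451a, -0.057 for miR-486a-5p, -0.027 for miR-466i-5p and -0.0039 for miR-467f. With the median over those detected on all 6 it was -0.075 for miR-132-3p, -0.047 for miR-212-3p, -0.40 for miR-9-5p, -0.54 for miR-138-5p, -0.56 for miR-451a and -0.075 for miR-466i-5p. When centred it was -0.0046 for miR-132-3p, -0.49 for miR-451a and -0.0039 for miR-466i-5p, and with the percentile per array -0.46 for miR-451a. With normexp it was 0.28 for miR-494-3p, 0.32 for miR-211-5p, 0.24 for miR-150-5p and 0.17 for miR-1a-3p, and for miR-223-3p the values without 1 pair were from -0.39, without the Control pair, to 0.53. The cause was not tested. The planned percentile over all miRNAs was not run, since it is 0. miRNAs near 3 probe errors have the least certain values.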
